A study of Mus musculus with 27 samples.

Results

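The IL-6 family was followed here through 10 genes: the ligands Il6, Lif, Osm and Il11, the receptor genes Il6ra, Il6st, Lifr and Osmr, the transcription factor Stat3 and the feedback inhibitor Socs3. They were taken by symbol, and all 10 were among the 37095 gene symbols of the count table. Messenger RNA was measured in 27 mouse libraries from skull, meninges and brain, in a study of light on the cranium, brain border immunity and stroke. Each tissue was sampled 0.5 h after irradiation, 24 h after irradiation and without irradiation, with 3 libraries in each of the 9 groups. The 0.5 h and 24 h mice received UVB of 311 nm at 2 mW over the interparietal bone, and the controls are labelled as not treated with UVB. The meninges were scraped off the skullcap after blood had been washed away with PBS, and poly(A) RNA was sequenced. Strain, age, sex, exposure time, sham handling and the hour of collection are not in the labels. The labels also do not say that replicates came from separate mice, so p-values measure the spread between these libraries, which may be technical.

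IL-6 family cytokines signal through receptor complexes that contain gp130, the product of Il6st. Interleukin-6 and interleukin-11 first bind their own alpha receptors, whereas LIF binds the LIF receptor and oncostatin M binds the oncostatin M receptor or the LIF receptor, each paired with gp130. Janus kinases on these receptors phosphorylate STAT3, which enters the nucleus and induces Socs3 among other genes, and the SOCS3 protein binds gp130 and shuts the signal down. In bone the family acts on osteoblasts and osteoclasts, and in inflamed meninges and brain it is made by stromal, myeloid and glial cells.

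The sequences before the starts of Il6 and Socs3 are shown because these were the members that passed the test at 0.5 h. They are the 250 bases before each start, taken from RefSeq on GRCm38.p6, 5′ to 3′ along the gene's strand, with motif matches in capitals. The Il6 window lies at chr5:30012864-30013113 on the plus strand and the Socs3 window at chr11:117969367-117969616 on the minus strand.
Il6: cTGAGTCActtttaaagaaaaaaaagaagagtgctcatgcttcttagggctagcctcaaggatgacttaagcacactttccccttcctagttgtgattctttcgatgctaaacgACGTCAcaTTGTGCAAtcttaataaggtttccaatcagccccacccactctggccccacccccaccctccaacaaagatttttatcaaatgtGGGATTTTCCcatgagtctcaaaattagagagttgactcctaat
Socs3: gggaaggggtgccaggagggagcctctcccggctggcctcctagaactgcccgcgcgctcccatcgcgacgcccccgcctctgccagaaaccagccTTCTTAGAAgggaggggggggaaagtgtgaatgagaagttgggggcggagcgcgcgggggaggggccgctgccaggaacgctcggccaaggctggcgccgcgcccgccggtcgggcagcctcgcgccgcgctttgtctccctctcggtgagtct
Both strands were searched for the STAT element TTCNNNGAA, the C/EBP motif TTNNGNAA, the AP-1 motif TGANTCA, the CRE core ACGTCA and the NF-kB consensus. The Il6 window held an AP-1 match 249 to 243 bases before the start, a CRE core at 136 to 131, a C/EBP match at 128 to 121 and an NF-kB match at 44 to 35, and none of these overlapped. The Socs3 window held a STAT element 154 to 146 bases before the start. Of the 32851 promoters in the table, 6.75% held the AP-1 motif, 6.47% the CRE core, 36.8% the C/EBP motif, 7.25% the NF-kB consensus and 7.02% the STAT element. These matches describe letters in a window and do not show that a factor was bound. Promoter sequences were matched for 9 of the 10 members. Members not called at 0.5 h also held matches. These were the AP-1 motif and the NF-kB consensus for Lif, the AP-1 motif for Il11, and the C/EBP motif for Il6ra and Stat3. The windows of Il6st, Osmr and Lifr held none.

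In the GENCODE M21 annotation of GRCm38 all 10 members are protein-coding genes. Il6 lies on the plus strand at chr5:30013114-30019981 and Socs3 on the minus strand at chr11:117966079-117970047. The Socs3 window shown above lies inside that span, because GENCODE places the start of Socs3 further upstream than RefSeq does. Osm at chr11:4236420-4241026 and Lif at chr11:4257557-4272514 are neighbours on the plus strand, with 16530 bases between them. Osmr at chr15:6813577-6874969 and Lifr at chr15:7090614-7197489 lie 215644 bases apart on opposite strands. Exons of Stat3 share 72 bases with Stat5a, and those of Il6ra share 242 bases with Gm42809, in both cases on the opposite strand. The strand setting of the counting is not given in the sources used here, so reads over those bases may have been counted for either gene.

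Library totals ran between 14.2 M and 27.3 M counts, and the deepest was the first untreated brain library, with 27.3 M, against 14.2 M to 16.1 M in the other 8 brain libraries. Levels are CPM, read counts set against the library total, with totals scaled within each tissue by the TMM method. After edgeR's filter on low counts, 10 of 10 members were tested in skull, 10 of 10 in meninges and 7 of 10 in brain, where Il6, Osm and Il11 were too low. In skull, Il11 passed that filter through its 24 h group. Summed over 7 osteoblast markers, untreated libraries held 51900 to 83100 CPM in skull, 21100 to 35800 CPM in meninges and 46.0 to 73.2 CPM in brain. Summed over 8 neuron markers, they held 21.1 to 27.2 CPM in skull, 398 to 742 CPM in meninges and 6900 to 7340 CPM in brain. The 9 meningeal fibroblast markers, among them the collagen gene Col1a2 that bone cells also use, summed to 47400 to 69500 CPM in skull, 22300 to 34900 CPM in meninges and 443 to 598 CPM in brain. The meninges libraries thus carried markers of neurons and of osteoblasts beside their own. They also carried pineal markers, at 1150 to 1450 CPM against 2.34 to 4.66 CPM in skull and 1.30 to 2.87 CPM in brain, and choroid plexus markers, at 30.4 to 6310 CPM between untreated meninges libraries.

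At 0.5 h after UVB, Il6 was lower than in untreated tissue in both meninges and skull. Il6 encodes interleukin-6, the ligand that signals through Il6ra and gp130. In meninges it stood at 0.233, 0.202 and 0.337 CPM at 0.5 h, from 4, 3 and 6 counts, against 2.27, 3.20 and 4.08 CPM in controls, from 34, 54 and 69 counts. Each of the 3 irradiated libraries lay below each of the 3 controls. Il6 passed the low-count filter in meninges through its controls, where it is high, and no 0.5 h library reached the minimum of 10 counts. The log2 fold change was −3.58 ± 0.58 (SE), with an adjusted p of 0.0192 by edgeR's quasi-likelihood test with Benjamini-Hochberg adjustment, which was used for each adjusted p given here unless another tool is named. The call ended when any of the 6 compared libraries was left out: the adjusted p was 0.0524, 0.0607 and 0.0654 without control 1, 2 or 3, and 0.122, 0.124 and 0.058 without 0.5 h library 1, 2 or 3. The log2 fold change stayed between −3.82 and −3.36 in the 9 fits that each left out a library of the tissue.

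In skull, Il6 stood at 0.720, 0.472 and 1.59 CPM at 0.5 h, from 12, 8 and 30 counts, against 6.36, 6.78 and 11.8 CPM in controls, from 107, 119 and 171 counts. The groups did not overlap here either. The log2 fold change was −3.13 ± 0.56 (adjusted p = 0.0178). The call ended without 0.5 h library 1 (adjusted p = 0.0843) and without 0.5 h library 2 (adjusted p = 0.0841). The difference between the meninges and the skull effect at 0.5 h was −0.47 ± 1.1 on the log2 scale (adjusted p = 0.9999).

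At 24 h the mean level of Il6 lay between those of the other 2 groups in both meninges and skull. In meninges it stood at 0.479, 0.711 and 1.97 CPM at 24 h, all below the lowest control, with a log2 fold change of −1.60 ± 0.51 over control that missed the threshold (adjusted p = 0.0795). Without 24 h library 3, the highest of its group, the log2 fold change was −2.41 and passed (adjusted p = 0.0225). In skull Il6 stood at 3.11, 4.04 and 9.76 CPM at 24 h, which overlapped the controls (log2 fold change −0.56 ± 0.47, adjusted p = 0.453). Against the 0.5 h libraries of skull the 24 h libraries were higher by 2.57 ± 0.56 on the log2 scale (adjusted p = 0.0147), and no 24 h library was as low as any 0.5 h library. That call ended without 0.5 h library 1 (adjusted p = 0.0653) and without 0.5 h library 2 (adjusted p = 0.055). In meninges the same contrast gave 1.98 ± 0.60 and did not pass (adjusted p = 0.122). The 0.5 h libraries enter both of the contrasts in a tissue, and the controls enter the comparisons of both times.

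**Figure D1:**
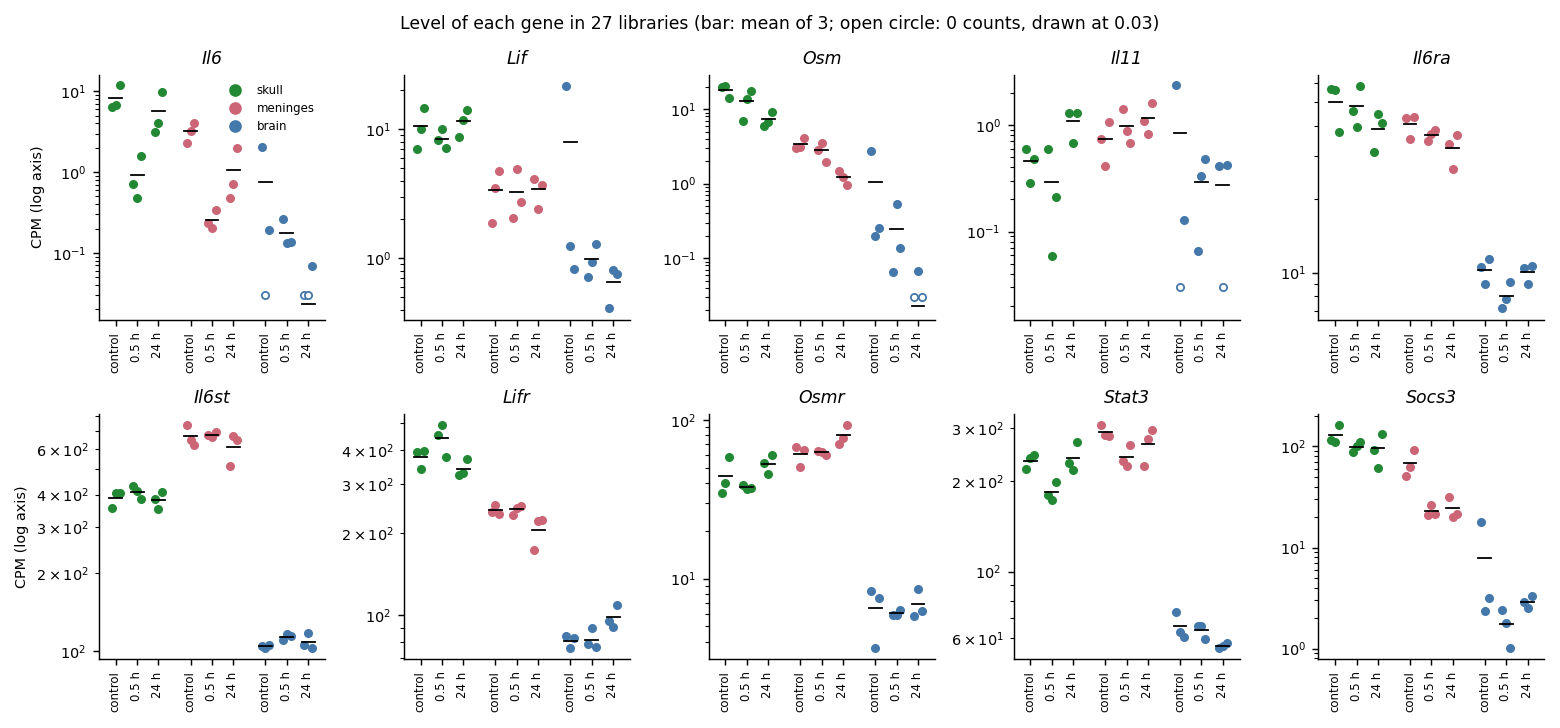
CPM of each member (log axis) in all 27 libraries, by tissue and time; points are libraries, bars are means of 3 and open circles mark 0 counts. Il6 was lowest at 0.5 h in meninges and skull, Socs3 was lower at both times in meninges, and a control library of brain lay far above the rest for Il6, Lif, Osm, Il11 and Socs3.

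Osm, which encodes oncostatin M, a product of activated neutrophils, macrophages and T cells, was lower at 24 h in both border tissues. In meninges it stood at 1.5, 1.24 and 0.952 CPM at 24 h, against 3.01, 3.08 and 4.14 CPM in controls. In skull it stood at 5.99, 6.73 and 9.15 CPM at 24 h, against 20.0, 20.7 and 14.1 CPM in controls. The groups overlapped in neither tissue. The log2 fold changes were −1.46 ± 0.33 in meninges (adjusted p = 0.0217) and −1.33 ± 0.32 in skull (adjusted p = 0.0165). The meninges call ended without control 2 (adjusted p = 0.0525), control 3 (0.0674), 24 h library 2 (0.0694) or 24 h library 3 (0.0734). The skull call ended without control 1 (adjusted p = 0.0517), control 2 (0.0521), 24 h library 1 (0.0698) or 24 h library 2 (0.0578).

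At 0.5 h Osm stood at 2.86, 3.56 and 1.97 CPM in meninges and at 6.84, 13.6 and 17.5 CPM in skull, overlapping the controls in both (adjusted p = 0.781 in meninges and 0.354 in skull). For 24 h over 0.5 h the log2 fold change was −1.17 ± 0.33 in meninges (adjusted p = 0.0998) and −0.80 ± 0.32 in skull (adjusted p = 0.12). Without 0.5 h library 1, the lowest of its group, the skull contrast was −1.11 and passed (adjusted p = 0.0128). Summed over 9 neutrophil markers, meninges libraries held 157 to 198 CPM at 24 h, against 180 to 604 CPM in controls. Skull libraries held 3350 to 5220 CPM at 24 h, against 3770 to 8110 CPM in controls. None of the 9 markers was at 0 in those libraries, and 1 of 9 was called in skull at 24 h, lower, and 0 of 9 in meninges. Macrophage markers, 7 in all, summed to 1090 to 1410 CPM at 24 h, against 905 to 1260 CPM in controls, in meninges, with 1 of 7 called higher, and to 555 to 632 CPM at 24 h, against 577 to 813 CPM in controls, in skull, with 2 of 7 called lower. Markers of T and NK cells, 6 in all, summed to 9.15 to 14.4 CPM at 24 h, against 14 to 16 CPM in controls, in meninges, with 0 of 6 called, and to 27.3 to 40.6 CPM at 24 h, against 30.9 to 59.4 CPM in controls, in skull, with 1 of 6 called lower. None of these markers was at 0 in those libraries. In skull at 24 h 3 of 5 B cell and 3 of 6 erythroid markers were also called lower. Of the 7 osteoblast markers 3 were called higher there and 1 lower. Of all genes tested, 10.4% were called lower and 10.6% higher in skull at 24 h. In meninges at 24 h 4.45% were called lower and 3.97% higher. Skeletal muscle markers in meninges summed to 19.2 to 75.3 CPM at 24 h, against 26.7 to 3860 CPM in controls, with 0 of 6 called. The part of these cells in the Osm result was not tested. In such tissue pieces, fewer cells of a type and less RNA per cell cannot be told apart.

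Lif and Il11 gave no call in meninges or skull. Lif, which encodes leukemia inhibitory factor, ranged over the 9 libraries of a tissue between 1.87 and 4.91 CPM in meninges and between 7.01 and 14.6 CPM in skull. Its log2 fold changes over control lay between −0.32 and 0.13 in these tissues. Il11 encodes interleukin-11, which acts on bone cells and fibroblasts. In skull it stood at 1.30, 0.673 and 1.28 CPM at 24 h, against 0.594, 0.285 and 0.484 CPM in controls, with the 3 irradiated libraries on top. Il11 had passed the low-count filter in skull through that 24 h group. The log2 fold change was 1.25 ± 0.64 (adjusted p = 0.186). Over the 0.5 h skull libraries, at 0.600, 0.0590 and 0.211 CPM, it was 1.89 ± 0.67 (adjusted p = 0.0724), and this passed without 0.5 h library 1 (2.90, adjusted p = 0.0383). In meninges Il11 ranged between 0.415 and 1.59 CPM over the 9 libraries.

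Socs3 was lower in meninges at both times. It stood at 20.9, 26.6 and 21.3 CPM at 0.5 h, against 50.7, 62.4 and 91.7 CPM in controls. At 24 h it stood at 31.5, 20.2 and 21.6 CPM. Neither irradiated group overlapped the controls, and the 2 irradiated groups overlapped each other. The log2 fold change over control was −1.58 ± 0.25 at 0.5 h (adjusted p = 0.0268) and −1.48 ± 0.25 at 24 h (adjusted p = 0.00918). The call at 24 h was kept in each of the 9 fits that left out a library of the tissue, with an adjusted p of at most 0.0427. The call at 0.5 h ended without control 2 (adjusted p = 0.0754), 0.5 h library 1 (0.165), 2 (0.0962) or 3 (0.0956), or 24 h library 3 (0.0529).

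In skull, Socs3 stood at 87.3, 101 and 109 CPM at 0.5 h, against 115, 111 and 163 CPM in controls, below each control but by little. At 24 h it stood at 91.6, 61.2 and 134 CPM and overlapped the controls. The log2 fold changes were −0.38 ± 0.28 at 0.5 h (adjusted p = 0.479) and −0.44 ± 0.28 at 24 h (adjusted p = 0.323). The Socs3 effect in meninges minus that in skull was −1.22 ± 0.65 at 0.5 h (adjusted p = 0.902) and −1.06 ± 0.65 at 24 h (adjusted p = 0.583), so the tissues were not shown to differ.

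Stat3, which encodes the factor that carries the signal of these receptors to the nucleus, moved little. In skull it stood at 180, 173 and 199 CPM at 0.5 h, against 220, 239 and 244 CPM in controls, without overlap. The log2 fold change was −0.35 ± 0.10 and missed the threshold (adjusted p = 0.0575); it passed without 24 h library 3 (adjusted p = 0.0497). At 24 h it stood at 230, 218 and 269 CPM in skull, higher than at 0.5 h by 0.37 ± 0.10 (adjusted p = 0.0194). That call ended without 0.5 h library 1 (adjusted p = 0.074), 0.5 h library 2 (0.0845) or 24 h library 3 (0.0915). In meninges Stat3 stood at 233, 225 and 265 CPM at 0.5 h, against 308, 285 and 283 CPM in controls (log2 fold change −0.28 ± 0.11, adjusted p = 0.291).

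Of the 4 receptor genes, Lifr was called between the 2 times in skull and the other 3 in no comparison of times. Lifr, the LIF receptor, stood in skull at 325, 329 and 370 CPM at 24 h, against 455, 494 and 377 CPM at 0.5 h. No library of either group crossed into the other, and the log2 fold change was −0.37 ± 0.11 (adjusted p = 0.0378). The call ended without control 1 (adjusted p = 0.0505), 0.5 h library 1 (0.0995) or 2 (0.157), or 24 h library 1 (0.142), 2 (0.0984) or 3 (0.0566). The untreated skull libraries, at 394, 341 and 397 CPM, overlapped both.

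Osmr, the oncostatin M receptor, stood in meninges at 70.9, 77.2 and 92.9 CPM at 24 h, against 67.9, 50.8 and 64.5 CPM in controls. Every 24 h library lay above every control, yet the log2 fold change of 0.40 ± 0.12 missed the threshold (adjusted p = 0.0728). It passed without 24 h library 1, the lowest of its group (adjusted p = 0.0497). In skull it stood at 53.2, 45.8 and 60.3 CPM at 24 h, against 34.7, 40.2 and 58.2 CPM in controls (0.26 ± 0.17, adjusted p = 0.307). Without control 3 the skull value was 0.50 and passed (adjusted p = 0.0121). Over the 0.5 h skull libraries, at 39.0, 36.9 and 37.2 CPM, the 24 h level was higher by 0.49 ± 0.17 (adjusted p = 0.0718), which passed without control 1 (adjusted p = 0.0356) or control 3 (adjusted p = 0.00746).

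Il6ra, the alpha receptor of interleukin-6, and Il6st, the shared gp130 chain, were called in no comparison of times within a tissue. Il6ra ranged between 26.7 and 43.4 CPM over the 9 meninges libraries and between 31.2 and 58.2 CPM over the 9 skull libraries. Il6st ranged between 514 and 741 CPM in meninges and between 353 and 431 CPM in skull. The log2 fold changes of Il6st over control lay between −0.13 and 0.072 in these tissues.

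**Figure D2:**
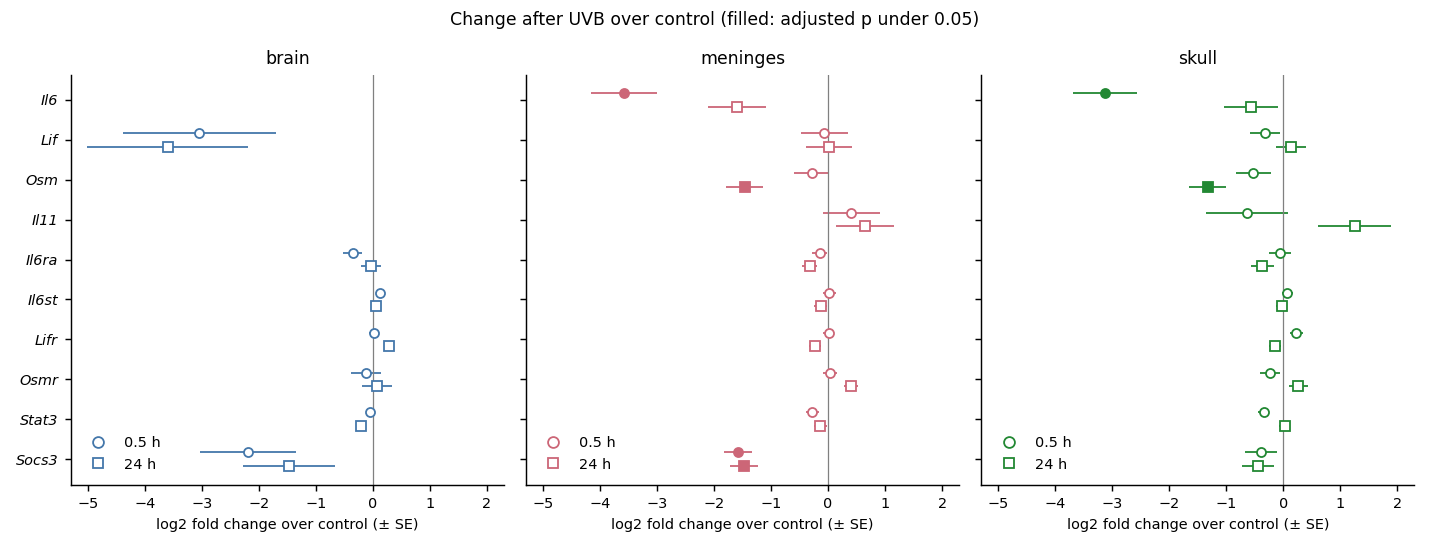
Log2 fold change over control of each tested member at 0.5 h (circles) and 24 h (squares) by tissue, with SE bars; filled points have an adjusted p under 0.05. Filled points were Il6 and Socs3 at 0.5 h and Osm and Socs3 at 24 h in meninges, and Il6 at 0.5 h and Osm at 24 h in skull.

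Counted over the members, 2 of 10 were called at 0.5 h in meninges, both lower, where 0.507% of 18542 genes were called lower and 0.874% in either direction. Il6, among these 2, had passed the low-count filter in meninges through its controls. At 24 h in meninges 2 of 10 were called, both lower, where 4.45% of all genes were called lower and 8.42% in either direction. Between 24 h and 0.5 h in meninges 0 of 10 were called, against 2.34% of all genes. At an unadjusted p under 0.05 there were 4 such members, Il6, Osm, Lifr and Osmr, and DESeq2 called 1, Osm, while limma-voom called 0. In skull 1 of 10 was called lower at 0.5 h, where 2.94% of 17426 genes were called lower, and 1 of 10 at 24 h, where 10.4% were. Between 24 h and 0.5 h in skull 2 of 10 were called higher and 1 of 10 lower, against 8.39% and 7.74% of all genes. The count at 24 h in skull is close to the share of all genes. The median log2 fold change of the members was −0.10 at 0.5 h and −0.18 at 24 h in meninges, and −0.33 at 0.5 h and −0.087 at 24 h in skull. Over all genes tested these medians were 0.0089, 0.017, 0.00081 and −0.0014.

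A looser description is whether the 3 libraries of a group all lay to the same side of the 3 of the other. In meninges at 0.5 h 3 of 10 members, Il6, Stat3 and Socs3, lay below control without overlap, as 9.93% of all genes did, and 0 of 10 lay above, as 10.8% did. Il6 had passed the low-count filter in meninges through its controls, which bears on its place at both times there. In skull at 0.5 h the same 3 members lay below, against 14.2% of all genes, and 0 of 10 above, against 13.4%. In meninges at 24 h 4 of 10 lay below, Il6, Osm, Lifr and Socs3, against 13.1% of genes, and 1 of 10 above, Osmr, against 14.9%. Lifr stood there at 173, 221 and 222 CPM, against 238, 251 and 234 CPM in controls (log2 fold change −0.23 ± 0.10, adjusted p = 0.187).

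In skull at 24 h 1 of 10 lay below control, Osm, against 18.1% of genes, and 1 of 10 above, Il11, against 19.6%. Between 24 h and 0.5 h in meninges 2 of 10 lay above, Il6 and Osmr, against 11.6% of genes, and 2 of 10 below, Osm and Lifr, against 11.7%. In skull 4 of 10 lay above, Il6, Il11, Osmr and Stat3, against 19.5% of genes, and 1 of 10 below, Lifr, against 18%. Il11 passed the low-count filter in skull through its 24 h group, so its place above in both skull comparisons partly follows from that filter. In brain at 24 h 1 of 7 tested members lay above control, Lifr, against 11.5% of genes, and 2 of 7 below, Lif and Stat3, against 10.8%.

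Brain gave no call for the 7 members tested: 0 of 7 at 0.5 h, where 0.0055% of 18172 genes were called, 0 of 7 at 24 h, where 2.62% were, and 0 of 7 between the 2 times, where 0.22% were. At an unadjusted p under 0.05 by edgeR these counts were 1, 3 and 1, and DESeq2 and limma-voom each called 0. The first untreated brain library stood apart for the ligands and Socs3. Lif stood there at 21.6 CPM, from 591 counts, against 0.411 to 1.30 CPM in the other 8 brain libraries, 16.7 times the highest of them. Il6 stood there at 2.05 CPM, from 56 counts, against at most 0.262 CPM in the others, and Osm at 2.74 CPM, from 75 counts, against at most 0.533 CPM. Il11 stood there at 2.38 CPM, from 65 counts, against at most 0.477 CPM, and Socs3 at 18.1 CPM, from 494 counts, against 1.02 to 3.33 CPM. The receptor genes did not share this. Il6ra, Il6st, Lifr and Osmr lay within the range of the other 8, and Stat3 was 1.11 times the highest of them. Lifr stood in brain at 95, 90.7 and 109 CPM at 24 h, against 83.9, 76.3 and 82.6 CPM in controls (log2 fold change 0.28 ± 0.09, adjusted p = 0.0876). Stat3 stood at 55.8, 56.7 and 57.7 CPM at 24 h, against 73.6, 62.9 and 60.6 CPM in controls (−0.21 ± 0.09, adjusted p = 0.197).

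Of 14987 genes with at least 50 counts in some brain library, 95 (0.634%) were more than 4-fold higher in that library than in each other brain library, and 5 of the 10 members were among them. Of these 5, Il6, Lif, Osm and Il11 reached 50 counts in that library alone and entered the count through it. They had at most 4, 19, 8 and 7 counts in the other brain libraries. The number of genes standing apart in this way was 0 or 1 for each of the other 8 brain libraries. The minimum is in raw counts and the first untreated library was the deepest, so these numbers are not on like terms. Of the inducing-signal list described further on, 4 of 20 genes with that minimum were among the 95: Cxcl1, Cxcl2, Ccl2 and Atf3. Of the STAT3 target list 0 of 21 were, though the 4-fold bound does not count smaller differences. Summed markers of 14 of 15 cell types, skin, muscle, bone, immune and endothelial cells among them, lay within the range of the other 8 libraries. The 9 neutrophil markers summed to 1.43 CPM, just below that range of 1.5 to 4.63 CPM, with 3 of 9 at 0.

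That library set the size of the brain values. The Lif log2 fold change over control was −3.60 ± 1.42 at 24 h (adjusted p = 0.252) and −3.04 ± 1.34 at 0.5 h (adjusted p = 0.938). Without it they were −0.63 at 24 h and −0.076 at 0.5 h. Socs3 gave −1.47 ± 0.80 at 24 h (adjusted p = 0.392) and −2.20 ± 0.84 at 0.5 h (adjusted p = 0.93), and without that library 0.074 at 24 h and −0.66 at 0.5 h. Il6 had 0, 0 and 1 counts at 24 h, against 56, 0 and 3 in controls. Set against controls 2 and 3 alone, its ratio per count was 0.242, with an exact 95% interval of 0.00462 to 3.02 that covers counting error only. Osm had 1 count in all at 24 h, against 7 in controls 2 and 3, a ratio of 0.104 with an interval of 0.0023 to 0.809. Il11 went the other way, with 12 counts against 2, a ratio of 4.36 with an interval of 0.971 to 40.1. At 0.5 h these ratios were 1.86 for Il6 (0.447 to 10.9), 1.10 for Osm (0.388 to 3.34) and 4.54 for Il11 (1.03 to 41.4).

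**Figure D3:**
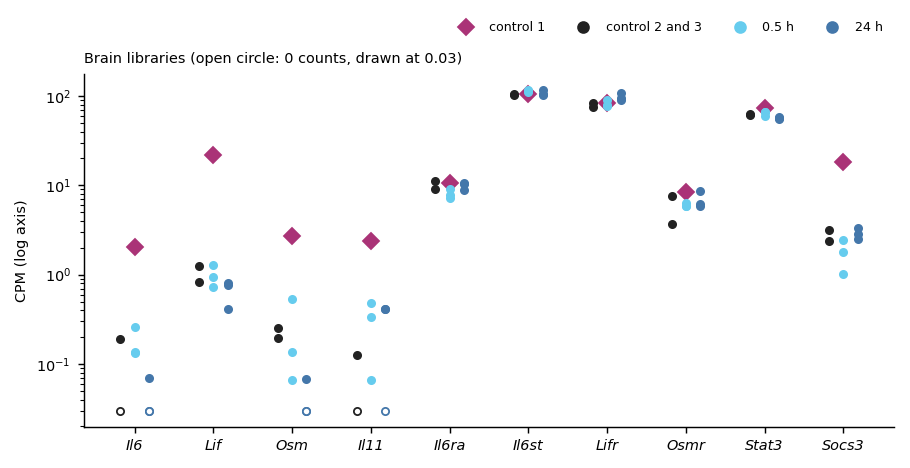
CPM of each member (log axis) in the 9 brain libraries; the diamond is the first untreated library, circles are the other 8, and open circles mark 0 counts. The diamond lies above the other libraries for Il6, Lif, Osm, Il11 and Socs3 and among them for Il6ra, Il6st, Lifr and Osmr.

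Whether an effect of UVB differed between tissues was tested for all 10 members in a fit of all 27 libraries. None of the 10 was called in any of the 6 differences, where 0.209% of 21500 genes were called for skull minus brain at 0.5 h, 0.0093% for meninges minus brain and 0.0093% for meninges minus skull. At 24 h 6.71% of genes were called for skull minus brain, 1.32% for meninges minus brain and 0.633% for meninges minus skull. At an unadjusted p under 0.05 by edgeR the members gave 2, 1 and 0 at 0.5 h and 5, 3 and 0 at 24 h in that order of differences. At 24 h DESeq2 called 4 members for skull minus brain, Il6, Lif, Lifr and Osm, and 2 for meninges minus brain, Lif and Lifr, while limma-voom called Lifr for skull minus brain. The brain arm of each of these includes the library that stood apart, in which Lifr lay within the range of the other brain libraries. Without that library Lifr at 24 h was −0.46 ± 0.16 for skull minus brain by edgeR (adjusted p = 0.094). For meninges minus brain it was −0.57 ± 0.16 (adjusted p = 0.0971). Lif at 24 h, skull minus brain, was 3.72 ± 1.12 by edgeR (adjusted p = 0.0509). Without the first untreated brain library it was 0.76 (adjusted p = 0.574), and it passed without brain control 2 (4.22, adjusted p = 0.0163) or brain control 3 (4.25, adjusted p = 0.00954). Lif for meninges minus brain passed without brain control 3 (4.10, adjusted p = 0.0356), and Il6 for skull minus brain without brain control 2 (4.73, adjusted p = 0.0469).

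In untreated tissue the receptor genes, Stat3 and Socs3 were higher in skull and in meninges than in brain. To compare genes with each other, CPM were divided by the length of the longest annotated transcript (RPKM). In untreated skull Socs3 averaged 55.1 ± 12, Il6st 48.7 ± 3.5, Lifr 42.4 ± 3.5 and Stat3 42.1 ± 2.1 RPKM (SD, n = 3 each). Osmr at 8.76, Osm at 8.73, Il6ra at 6.28, Il6 at 3.85, Lif at 2.84 and Il11 at 0.253 RPKM followed. Of these neighbours, Socs3 and Il6st, Lifr and Stat3, and each adjacent pair between Osmr and Lif overlapped in their libraries.

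In untreated meninges Il6st led with 72.1 ± 6.8 RPKM, above Stat3 at 45.1 ± 2.4, Socs3 at 25.0 ± 7.9 and Lifr at 23.3 ± 0.5 RPKM. Socs3 and Lifr overlapped. Osmr at 10.4 and Il6ra at 4.37 RPKM came next, and the ligands were lowest, with Osm at 1.40, Il6 at 1.27, Lif at 0.780 and Il11 at 0.354 RPKM, overlapping between neighbours. In untreated brain Il6st at 12 ± 0.13 and Stat3 at 10.8 ± 1.2 RPKM overlapped, Lifr followed at 8.34 ± 0.44 RPKM, and Il6ra averaged 1.18 ± 0.14 RPKM. With the union of all exons as the length, Lifr ranked above Stat3 in brain and Osmr fell below Osm and Il6ra in skull.

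**Figure D4:**
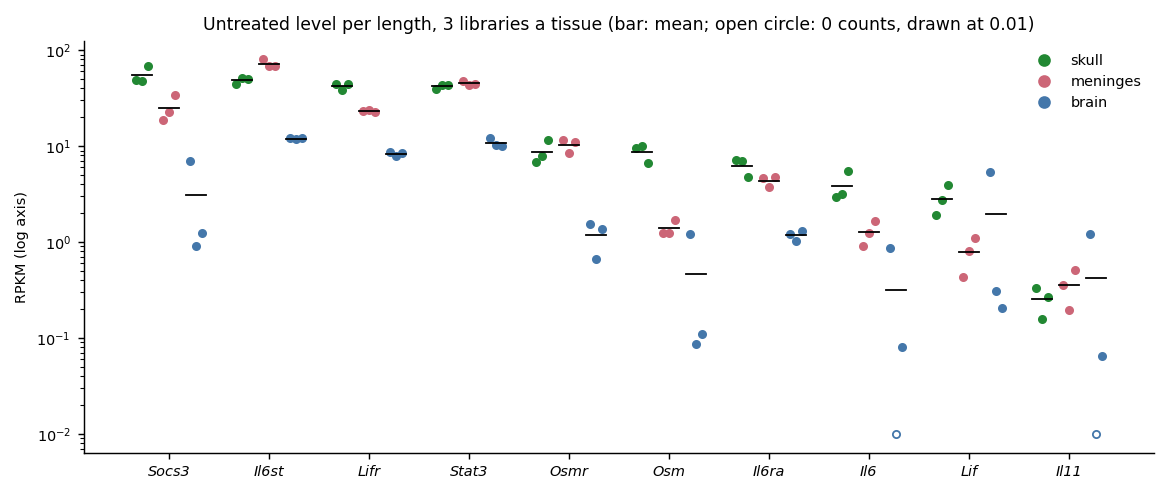
Level per length (RPKM, log axis) of each member in the untreated libraries of skull, meninges and brain; points are libraries, bars are means of 3 and open circles mark 0 counts. Socs3, Il6st, Lifr and Stat3 are highest and Il11 is lowest in skull, and skull and meninges lie above brain for the receptor genes.

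In the fit of all 27 libraries 8 of 10 members were called higher in untreated skull than in untreated brain, where 37.3% of 21500 genes were, and the same 8 in untreated meninges than in untreated brain, where 36.8% were. The exceptions were Lif and Il11. Osmr was higher in meninges than in brain by 3.11 ± 0.22 on the log2 scale (adjusted p = 1.76e-11). In skull Socs3 was higher by 4.09 ± 0.52 (adjusted p = 6.8e-07) and Osm by 4.06 ± 0.58 (adjusted p = 1.57e-06). Il6st was higher by 2.02 ± 0.09 in skull (adjusted p = 1.57e-15) and by 2.59 ± 0.09 in meninges (adjusted p = 5.29e-17). Il6, Osm and Il11 had failed the low-count filter in brain and entered this fit through the other tissues. Their place above brain thus partly follows from that filter. Without the first untreated brain library 10 of 10 were called in both comparisons. The brain side then rested on 3 counts of Il6, 7 of Osm and 2 of Il11 in controls 2 and 3 together. Il6 was then higher than in brain by 6.44 in skull and 4.85 in meninges, against 3.42 and 1.83 with that library kept. Osm was then higher by 6.42 in skull and 3.79 in meninges, and Socs3 by 5.67 in skull and 4.53 in meninges, against 2.95 for Socs3 and 1.42 for Osm in meninges with that library kept. Lif was then higher by 3.46 in skull (adjusted p = 4.42e-07) and 1.61 in meninges (adjusted p = 0.00341), and Il11 by 2.80 in skull (adjusted p = 0.0348) and 3.29 in meninges (adjusted p = 0.0136). With that library kept, the call of Il6 in meninges over brain ended without brain control 2 (adjusted p = 0.0871), brain control 3 (0.109) or meninges control 3 (0.0818). That of Osm ended without the same libraries (adjusted p = 0.122, 0.126 and 0.0921). Lif in meninges was called lower than in brain without brain control 2 (adjusted p = 0.0211) or brain control 3 (0.0134), fits in which the library that stood apart weighs more.

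Between the border tissues 5 of 10 members were called higher in untreated skull than in untreated meninges, Lif, Osm, Il6ra, Lifr and Socs3, where 21.6% of genes were, and 1 of 10, Il6st, was called lower, where 26.5% were. The log2 differences of skull over meninges were 2.64 ± 0.54 for Osm (adjusted p = 0.000301), 0.86 ± 0.10 for Lifr (adjusted p = 2.03e-07) and −0.57 ± 0.09 for Il6st (adjusted p = 1.24e-05). Lif, at 1.86 ± 0.74 (adjusted p = 0.0439), lost its call without meninges control 1 (0.145), 2 (0.096) or 3 (0.0551), or skull control 2 (0.075) or 3 (0.134). Socs3, at 1.14 ± 0.46 (adjusted p = 0.0466), lost its call without meninges control 1 (0.151) or 2 (0.117), or skull control 1 (0.0674), 2 (0.0624) or 3 (0.148). Il6ra, at 0.52 ± 0.17 (adjusted p = 0.0128), lost its call without meninges control 2 (0.0734) or skull control 1 (0.0716) or 2 (0.069). Il6 was higher in each untreated skull library than in any untreated meninges library but missed the threshold (1.60 ± 0.67, adjusted p = 0.0538).

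Genes that STAT3 is known to induce were counted from a list of 30, of which 28 were tested in each border tissue. At 0.5 h 0 of 28 rose and 4 fell in meninges, Pim3, Tnfrsf12a, Bcl2l1 and Cebpd, and 0 of 28 rose and 7 fell in skull, among them Myc, Cebpd, Icam1 and Pim3. Of all genes, 0.367% rose and 0.507% fell in meninges at 0.5 h, and 1.96% rose and 2.94% fell in skull. Pim3, a survival kinase, stood at 74.0 ± 4.1 CPM at 0.5 h, against 127 ± 11 CPM in controls, in meninges, and at 52.0 ± 6.7 CPM, against 98.9 ± 2.2 CPM, in skull (SD, n = 3 each). At 24 h 4 rose and 7 fell in meninges, where 3.97% of all genes rose and 4.45% fell, and 5 rose and 12 fell in skull, where 10.6% rose and 10.4% fell. Those that rose in both were Ccnd1, which encodes cyclin D1, the protease inhibitor gene Timp1 and the acute-phase gene Saa3. Saa3 passed the low-count filter in both tissues through its 24 h group, where it is high, and so had to differ: in meninges it had 61, 87 and 47 counts at 24 h, against 1 count in each control, and in skull 706, 503 and 1263 counts at 24 h, against 6, 7 and 9 counts in controls. Timp1 stood in meninges at 95.4 ± 13.9 CPM at 24 h, against 44.3 ± 5.7 CPM in controls. Cebpd, a partner of STAT3 in acute-phase responses, fell in both, to 74.5 ± 20.1 CPM at 24 h, against 214 ± 4 CPM in controls, in meninges, and to 39.7 ± 3.0 CPM, against 119 ± 13 CPM, in skull. The median log2 fold change of the list was −0.27 at 0.5 h and 0.041 at 24 h in meninges, and −0.47 and −0.34 in skull.

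The count of STAT3 targets called at 0.5 h in meninges depended on single libraries: it was 1, 0 and 1 without control 1, 2 or 3, and 0 without 0.5 h library 1 or 2. In skull at 0.5 h it was 4 without 0.5 h library 1 or 2. Genes of the signals known to induce the ligands, NF-kB and AP-1 members and their feedback genes among them, were counted from a list of 22. Of these, 21 were tested in meninges and 22 in skull. Some of them, such as Nfkbia and Zc3h12a, act against the signal or the ligand, so the counts give no direction of signalling. At 0.5 h 0 rose and 5 fell in meninges, Zc3h12a, an RNase that degrades Il6 messenger RNA, Tnfaip3, Atf3, Jun and Nfkbia, where 0.367% of all genes rose and 0.507% fell. In skull 0 rose and 7 fell, among them Zc3h12a, Rela, Nfkbia and Tnfaip3, where 1.96% of all genes rose and 2.94% fell. Zc3h12a stood in meninges at 8.90 ± 1.20 CPM at 0.5 h, against 21.9 ± 4.0 CPM in controls, and in skull at 15 ± 3.5 CPM, against 29.2 ± 1.8 CPM.

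At 24 h 0 of the 21 genes of this list rose and 8 fell in meninges, where 3.97% of all genes rose and 4.45% fell. In skull 1 of 22 rose, the chemokine gene Ccl2, and 10 fell, where 10.6% of all genes rose and 10.4% fell. Nfkbia, which encodes an inhibitor of NF-kB, stood in meninges at 114 ± 25 CPM at 24 h, against 316 ± 27 CPM in controls, and in skull at 92.4 ± 18.4 CPM, against 303 ± 42 CPM. The median log2 fold change of the list was −0.18 at 0.5 h and −0.66 at 24 h in meninges, and −0.37 and −1.03 in skull. The count at 0.5 h in meninges was 1 without each of the 3 controls, 0 without 0.5 h library 1 or 2, and 3 without 0.5 h library 3. In skull at 0.5 h it was 4 without control 3 and 1 without 0.5 h library 1 or 2, and at 24 h it was 7 without control 3.

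Of 10 Janus kinase and STAT genes 0 were called over control at either time in meninges or skull. Of all genes tested, 0.874% were called over control at 0.5 h and 8.42% at 24 h in meninges. In skull these shares were 4.9% and 20.9%. Of 16 negative regulators 0 were called at 0.5 h in meninges, against 0.874% of all genes, and 1 at 24 h, Pias4, which was higher by 0.90 ± 0.12 on the log2 scale, where 3.97% of all genes rose. In skull 1 of 16 was called at 0.5 h, Ptpn1, lower, where 2.94% of all genes fell. At 24 h in skull 3 of 16 were higher, Socs5, Pias3 and Socs4, where 10.6% of all genes rose, and 2 of 16 lower, Pias1 and Ptpn1, where 10.4% fell. The count of 5 was 3 without control 2, 24 h library 1 or 24 h library 2. The call at 0.5 h in skull ended without control 1, 2 or 3, without 0.5 h library 1 or 2, or without 24 h library 1. Of the 4 other receptor genes 0 were called over control in either tissue, beside the same shares of all genes. Of the other ligand genes 1 of 6 tested in meninges, Ctf2, was called higher at 24 h, where 3.97% of all genes rose. In skull 0 of 5 were called, where 4.9% of all genes were called at 0.5 h and 20.9% at 24 h. Ctf2 had 33, 26 and 6 counts at 24 h and 13, 8 and 24 counts at 0.5 h, against 2, 3 and 4 counts in controls, and it passed the low-count filter through the irradiated groups alone. Its call ended without each control, 0.5 h library 1 or 2, or 24 h library 1 or 2. In brain 0 genes of the 6 lists were called at any time. Of all genes in brain, 0.0055% were called at 0.5 h, 2.62% at 24 h and 0.22% between the 2 times.

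**Figure D5:**
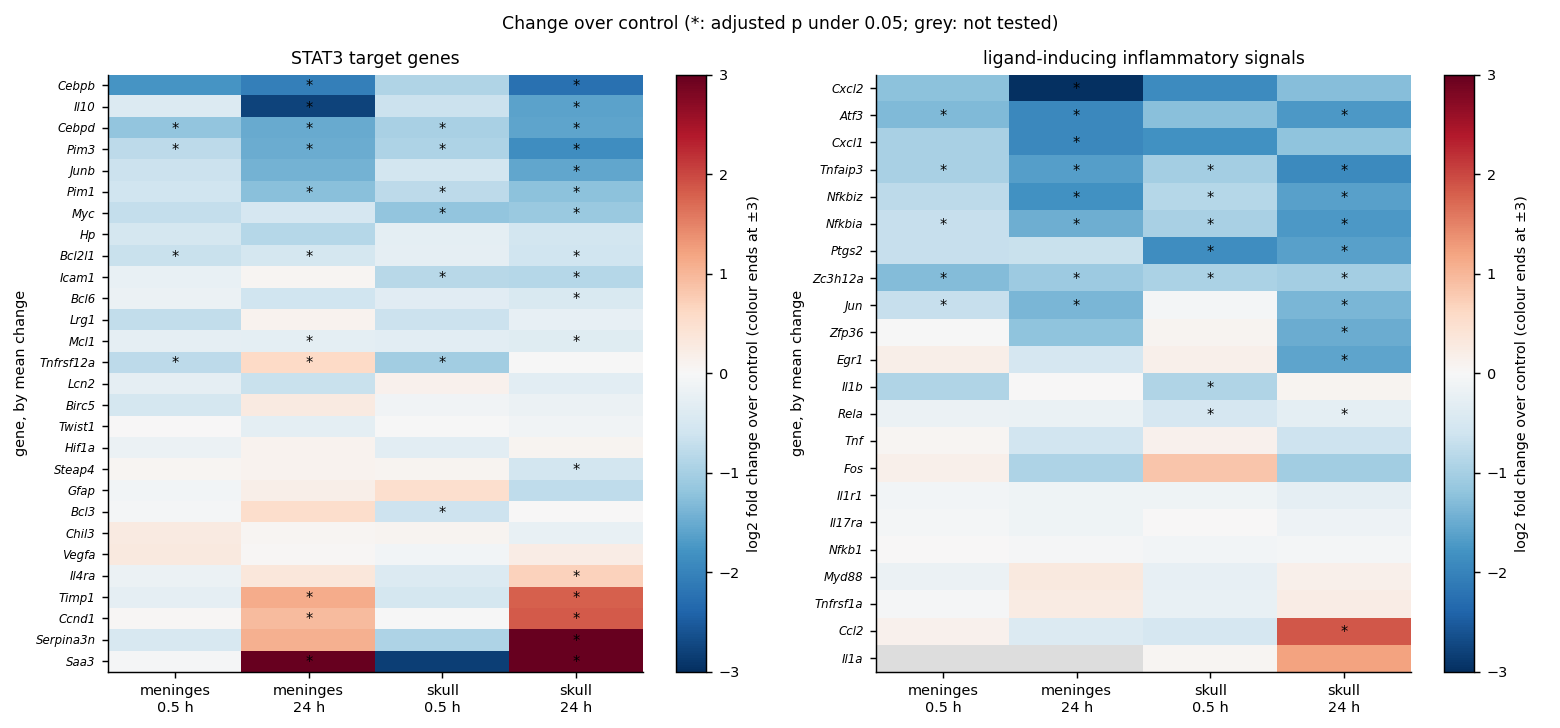
Log2 fold change over control of the genes of the STAT3 target list (left) and the inducing-signal list (right) in meninges and skull at 0.5 h and 24 h; stars mark an adjusted p under 0.05 and grey marks genes not tested. Each starred gene at 0.5 h is lower than in control, and at 24 h Timp1, Ccnd1 and Saa3 are starred and higher in both tissues.

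Likeness to the members over libraries was described by Pearson's r of log2(CPM + 1) after each tissue's mean was taken out, against 17000 genes. Libraries of a group share tissue and treatment, so r is a description without a test. For Il6 the closest genes over 27 libraries were Vapa (r = 0.88), Tmem248 (0.87), Etf1 (0.87), Stat3 (0.86) and Cxcl10 (0.84). For Stat3 they were Rbms1 (0.87), Il6 (0.86), Tmem184b (0.83), Axl (0.82) and Adam15 (0.81). The r of Il6 with Stat3 was 0.84 without the first untreated brain library and 0.87 over the 18 meninges and skull libraries. For Socs3 they were Itprip (0.85), Cxcl2 (0.82), Atf3 (0.82), Ifrd1 (0.82) and Cxcl1 (0.80), and the r of Socs3 with Il6 was 0.62. For Osm they were Pim1 (0.88), H2-Eb1 (0.86), Cd74 (0.84), H3f3b (0.84) and H2-Ab1 (0.84).

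For Lif the closest genes were S100a6 (r = 0.92), Krt8 (0.91), Anxa2 (0.90), Lgals3 (0.89) and Hspa1b (0.88), and this rested on the first untreated brain library: without it the highest r was 0.68, with Tomm5. Without that library the closest gene of Socs3 was Plk3 (0.78) and that of Osm was Gm2a (0.86). For the receptor genes the closest were Cybb for Il6ra (0.85), Lrch3 for Il6st (0.78), 9430021M05Rik for Lifr (0.76) and Csf1 for Osmr (0.76). Il11, with a mean of 0.671 CPM, was too low to compare.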

How the data were processed

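Poly(A) RNA of 27 libraries was sequenced on an Illumina instrument, per the labels' protocols. The authors deposited a table of raw counts per gene symbol. Reads were aligned to mm10 with HISAT2 2.1.0, per the submitters' processing notes (counting tool, annotation and strandedness: not given in the sources used here). All 27 sample columns were used. The lowest chi-square per degree of freedom between replicates was 5.81, so no library was a copy of another.

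From the deposited counts, genes were filtered by filterByExpr (count minimum 10, total minimum 15), scaled by TMM and tested across all genes of a tissue with edgeR 4.0.16's quasi-likelihood test in R 4.3.3. Comparisons of untreated tissues and differences of effects were fitted to the 27 libraries together. Benjamini-Hochberg adjustment ran over every gene tested in a comparison, and a call is an adjusted p under 0.05. Standard errors are the absolute log2 fold change divided by the square root of F. Alternatives were limma-voom (limma 3.58.1), DESeq2 1.42.0, RLE scaling, TMM after haemoglobin and mitochondrial genes were set aside, edgeR with its filter or its robust option off, a replicate block, only the compared groups, all 27 libraries and each library left out. In counts simulated from these libraries, the 24 h comparisons of brain, meninges and skull recovered 63.3%, 58.8% and 62.6% of genes changed by 2-fold and 80.8%, 72.0% and 85.0% of those changed by 4-fold. For the 24 h difference of meninges minus brain these shares were 34.0% and 67.3%.

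The 10 members, the pathway lists and the marker lists were chosen with earlier results of these data known. All members were named; of a pathway list, up to 4 called genes per comparison were named by smallest p, or each of them where 5 or fewer were called. Ccnd1, Timp1, Saa3, Cebpd and Nfkbia at 24 h and Cxcl1, Cxcl2, Ccl2 and Atf3 in brain were chosen after their values were seen. For likeness, genes with a mean of at least 1 CPM were compared on log2(CPM + 1), and the 5 closest were listed. Positions and lengths came from GENCODE M21 on GRCm38 (33392 of 37095 symbols matched). Summaries were made in Python 3.11.15 with numpy 2.4.6, pandas 2.3.3 and scipy 1.17.1. Intervals on count ratios are exact Clopper-Pearson and cover counting error only.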

Additional observations from a re-analysis of the deposited data

How the results depend on the processing

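Counts of members called moved by over 1.5 times as follows. Without the low-count filter 3 members passed at 24 h in brain (Il6, Osm and Lifr), 1 at 0.5 h in meninges, 2 at 0.5 h in skull and 0 at 24 h in skull. In the fit of all 27 libraries 2 passed at 24 h in brain (Lif and Osm), 1 at each time in meninges, 2 at 0.5 h in skull and 0 at 24 h in skull. Of the control counts in brain, the first untreated library held 56 of 59 for Il6, 75 of 82 for Osm and 591 of 623 for Lif. With limma-voom 2 passed at 0.5 h in skull, 5 between the irradiated groups of skull and 1 for the 24 h effect of skull minus brain. With DESeq2 these counts were 2, 5 and 4, and 4 passed at 24 h in meninges, 1 between its irradiated groups and 2 for the 24 h effect of meninges minus brain. Without the robust option 1 passed for skull minus brain at 24 h. With 1 library left out at a time, 0 to 2 members passed at 0.5 h in meninges, 1 to 3 at 24 h in meninges, 0 to 2 at each time over control in skull and 0 to 4 between its irradiated groups. Untreated tissues gave 6 to 10 for meninges over brain, 8 to 10 for skull over brain and 3 to 5 for skull against meninges. Brain gave 0 throughout, as did the 0.5 h differences between tissues; at 24 h these gave 0 to 2 for skull minus brain and 0 to 1 for meninges minus brain.

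Replicate numbers did not pair the libraries: same-numbered libraries deviated together with r between −0.45 and 0.18, and in no pair of groups was every r over 0.1. Under the replicate block 1 member passed at 0.5 h in meninges, since Socs3 lost its call (adjusted p = 0.103), Il6 passed at 24 h in meninges (−1.75, adjusted p = 0.0469), and Lifr lost its call between the irradiated groups of skull (adjusted p = 0.0776). In untreated skull over meninges Il6 passed (adjusted p = 0.0452) and Lif lost its call. No other member's call changed under the block.

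Lifr at 0.5 h in meninges was −0.0023 with scaling free of haemoglobin and mitochondrial genes, −0.011 with limma-voom and −0.0043 with all 27 libraries. Lif at 24 h in meninges was −0.012 with all 27 libraries; with limma-voom, Socs3 between the irradiated groups of meninges was −0.017 and Il6st at 24 h in skull 0.0089. Il11 in untreated meninges over brain was 1.66 with limma-voom and 0.020 under the replicate block, and in skull over brain 1.45 with limma-voom. The 24 h Socs3 effect of meninges minus brain was −0.0096 with RLE scaling, −0.62 with limma-voom, −0.076 with DESeq2 and −0.097 under the replicate block. With 1 library left out at a time, the log2 values that changed sign had these ranges. The ranges were −0.061 to 0.055 for Lifr, −0.40 to 0.11 for Osmr and −0.098 to 0.051 for Stat3 in brain 0.5 h against control. In brain 24 h against control they were −0.12 to 0.044 for Il6ra, −0.21 to 0.31 for Osmr and −1.89 to 0.074 for Socs3. The ranges were −0.51 to 0.26 for Lif, −0.030 to 0.086 for Il6st, −0.016 to 0.035 for Lifr and −0.092 to 0.10 for Osmr in meninges 0.5 h against control. In meninges 24 h against control it was −0.27 to 0.34 for Lif. The ranges were −0.15 to 0.52 for Lif, −0.044 to 0.60 for Il11 and −0.13 to 0.23 for Socs3 in meninges 24 h against 0.5 h. In skull 0.5 h against control they were −0.22 to 0.063 for Il6ra and −0.38 to 0.016 for Osmr. The ranges were −0.089 to 0.43 for Lif, −0.086 to 0.030 for Il6st and −0.062 to 0.094 for Stat3 in skull 24 h against control. In skull 24 h against 0.5 h it was −0.37 to 0.19 for Socs3. The ranges were −1.87 to 1.61 for Lif and −0.90 to 3.29 for Il11 in untreated meninges over brain. In untreated skull over brain they were −0.021 to 3.46 for Lif and −1.39 to 2.80 for Il11. The range was −0.93 to 1.05 for Socs3 in the 0.5 h effect meninges minus brain. In the 0.5 h effect meninges minus skull it was −0.80 to 0.20 for Il6. The range was −1.58 to 0.41 for Socs3 in the 24 h effect meninges minus brain. In the 24 h effect meninges minus skull it was −0.31 to 0.029 for Osm. The causes of these changes were not tested. Of the members' log2 values under the settings that kept every library of a comparison, 989 kept their direction and side of the threshold, 23 gained a call and 15 lost it. Low counts limit Il6 and Osm in brain and Il11 in all tissues.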
